A study of Mus musculus with 16 samples.

Results

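A set of 10 genes of the Toll-like receptor (TLR) and NF-kB signalling route were followed in the medial prefrontal cortex (mPFC) of 16 mice, taken by gene symbol from a named set. They were the receptors Tlr2, Tlr3, Tlr4 and Tlr7, the co-receptor Cd14, the adaptor Myd88, the kinase Irak4, the transcription factor subunits Nfkb1 and Rela, and the inhibitor Nfkbia. These 10 genes were among 26625 entries of the deposited table, and 9 of them were among the 18826 entries with enough reads to be tested. Tlr4, with 1 to 16 reads per mouse, was not.

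Toll-like receptors recognise molecules of microbes and of damaged cells. TLR2 and TLR4 stand at the cell surface, while TLR3 and TLR7 bind RNA inside endosomes, and all except TLR3 hand the signal to the adaptor MyD88 and the kinase IRAK4. The signal ends in the release of NF-kB dimers, such as p50 (from Nfkb1) with p65 (from Rela), from their inhibitor IkBa (from Nfkbia), after which they enter the nucleus and raise genes of cytokines, chemokines and of IkBa itself. In the brain, microglia are the best known carriers of these receptors.

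All mice were male C57BL/6 animals of 8 to 10 weeks and all carried an adeno-associated virus injected bilaterally into the mPFC, pAAV-U6-shRNA(Kdm7a)-CMV-EGFP-WPRE or the same vector with a negative control hairpin (NC). The U6 promoter acts in any infected cell, and which cell types the virus infected is not given by these data. Mice then went through conditioned place preference, with either morphine (10 mg/kg) or saline over 10 conditioning days, and tissue was taken on day 17, which was day 7 of withdrawal. The control virus was carried by 3 saline and 4 morphine mice (Ctrl + Saline, Ctrl + Morphine), the hairpin virus by 5 saline and 4 morphine mice (Kdm7a-shRNA + Saline, Kdm7a-shRNA + Morphine). Nanopore libraries of full-length cDNA gave 6596991 to 12418112 counted reads per mouse. Kdm7a, the target of the hairpin and a histone lysine demethylase, stood at 9.42 ± 0.353 normalised CPM (SD, n = 3) in Ctrl + Saline, 7.72 ± 1.13 (n = 4) in Ctrl + Morphine, 5.55 ± 0.571 (n = 5) in Kdm7a-shRNA + Saline and 4.94 ± 1.53 (n = 4) in Kdm7a-shRNA + Morphine mice. Normalised CPM are CPM scaled for composition (TMM factors), where CPM is a count relative to the library total. Kdm7a fell by 0.76 on the log2 scale under saline (SE 0.20, adjusted p = 0.0153), and under morphine its log2 fold change of -0.67 (SE 0.21, adjusted p = 0.0506) did not pass. Averaged over saline and morphine mice it fell, with a log2 fold change of -0.71 (SE 0.15, adjusted p = 0.00154). A gene was said to rise or fall when the adjusted p was below 0.05 and the fold change was at least 1.5.

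The NF-kB dimer binds short sites that follow the kappaB consensus, and promoters of the members were read for it, since several members are also known targets of NF-kB. RefSeq windows of 300 bases on GRCm38.p6, from 250 bases before to 50 bases after the start of transcription, were found for Tlr2, Tlr3, Myd88, Irak4, Rela and Nfkbia. The windows of Tlr2, Tlr3 and Nfkbia held a match to the 10-base consensus on either strand, and those of Myd88, Irak4 and Rela held none. Of 32851 promoters of this length, 1480 (4.51%) held a match. The 3 windows with a match are shown 5′ to 3′ in the direction of the gene, all of which lie on the minus strand, with the matches in capitals, Tlr2 at chr3:83841559-83841858, Tlr3 at chr8:45410331-45410630 and Nfkbia at chr12:55492598-55492897.
Tlr2: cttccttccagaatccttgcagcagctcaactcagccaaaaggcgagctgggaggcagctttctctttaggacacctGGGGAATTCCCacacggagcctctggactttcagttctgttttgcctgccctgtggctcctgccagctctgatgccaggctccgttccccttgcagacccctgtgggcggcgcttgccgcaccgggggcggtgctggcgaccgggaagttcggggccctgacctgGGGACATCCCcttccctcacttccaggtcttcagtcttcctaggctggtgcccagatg
Tlr3: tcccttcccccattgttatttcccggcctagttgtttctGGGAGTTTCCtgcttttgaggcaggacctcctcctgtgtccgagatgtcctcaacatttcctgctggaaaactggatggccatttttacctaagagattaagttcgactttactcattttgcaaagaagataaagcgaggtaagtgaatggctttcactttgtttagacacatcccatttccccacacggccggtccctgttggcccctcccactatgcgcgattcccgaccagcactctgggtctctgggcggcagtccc
Nfkbia: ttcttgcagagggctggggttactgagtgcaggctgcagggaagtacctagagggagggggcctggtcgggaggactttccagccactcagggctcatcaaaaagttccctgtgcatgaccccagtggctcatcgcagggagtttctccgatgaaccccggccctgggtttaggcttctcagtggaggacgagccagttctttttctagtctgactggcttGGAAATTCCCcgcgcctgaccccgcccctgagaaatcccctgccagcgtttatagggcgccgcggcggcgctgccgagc
Counted from 1 at the 5′ end, the matches of Tlr2 lay at bases 78 to 88, where overlapping matches on both strands share the run, and at bases 243 to 252, across the start. The match of Tlr3 lay at bases 40 to 49 and that of Nfkbia at bases 222 to 231. The RefSeq starts of Tlr2, Tlr3 and Myd88 lie inside the span of their genes in GENCODE, which begins further upstream. That of Nfkbia is the same in both annotations. A match is a description of letters, and binding was not measured.

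The tested receptors, the co-receptor and the adaptor stood higher in mice with the Kdm7a hairpin. Averaged over saline and morphine mice, Tlr2, Tlr3, Tlr7, Cd14 and Myd88 rose, by 1.91-fold for Myd88 to 3.58-fold for Tlr2, and no member fell. Thus 5 of 9 tested members passed, where 17.6% of all tested genes did in either direction and 7.68% did upward. The members and all lists below were chosen with earlier results of these data known, so such shares are descriptions only. The median log2 fold change over the 9 members was 0.94, against 0.0097 over all tested genes. Nfkbia passed the test (adjusted p = 0.0125) but its fold change of 1.43 stayed under the minimum. Irak4 (log2 fold change 0.70, adjusted p = 0.102), Nfkb1 (0.51, adjusted p = 0.0534) and Rela (0.36, adjusted p = 0.0502) did not pass. In bulk tissue a higher level from more cells of a type and from more RNA per cell cannot be told apart.

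**Figure D1:**
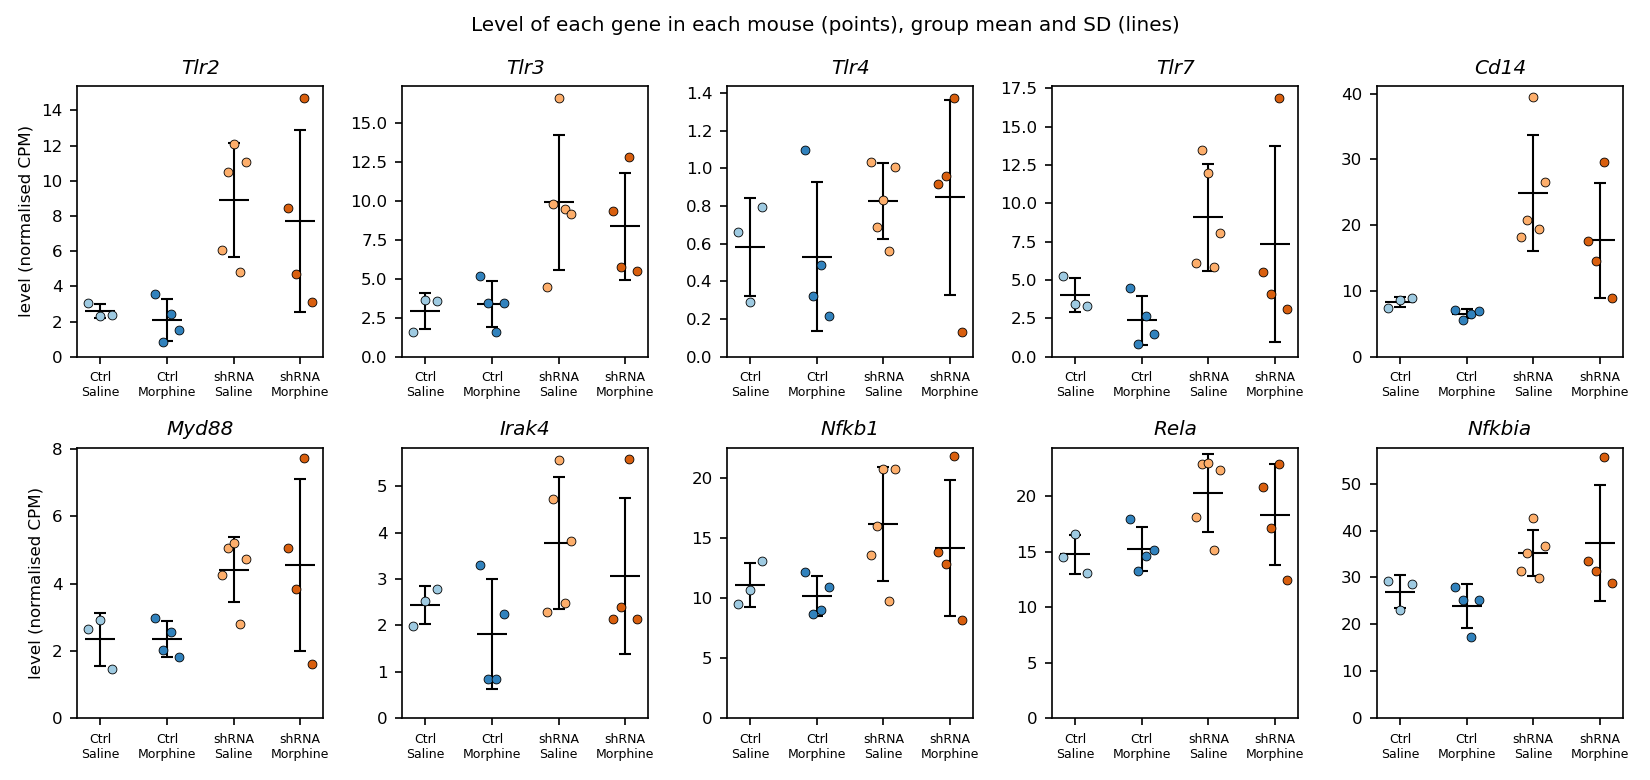
Level of each of the 10 genes (vertical axis, normalised CPM) in each of the 16 mice (points), by group, with the group mean and SD as lines. Cd14 is the gene for which all 9 Kdm7a-shRNA mice lie above all 7 control mice, and the Kdm7a-shRNA + Morphine mouse highest in every panel is replicate 3.

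Among the receptors, Tlr2, which with TLR1 or TLR6 recognises bacterial lipoproteins, had the largest fold change of the 3 tested receptors. Its level was 3.04, 2.34 and 2.38 normalised CPM in the 3 Ctrl + Saline mice and 3.59, 0.854, 2.43 and 1.5 in the 4 Ctrl + Morphine mice. With the hairpin it was 6.09, 10.5, 12.1, 4.84 and 11.1 under saline and 8.43, 4.68, 14.7 and 3.09 under morphine. The saline groups did not overlap, and under morphine the lowest hairpin mouse lay below the highest control mouse. The rise was 3.44-fold under saline (95% interval 1.69 to 7.02, adjusted p = 0.0167), 3.72-fold under morphine (1.90 to 7.28, adjusted p = 0.0181) and 3.58-fold averaged (2.19 to 5.84, adjusted p = 0.000714). The control values rested on 8 to 36 reads per mouse.

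Tlr3, the endosomal receptor of double-stranded RNA that signals through TRIF in place of MyD88, was low in both control groups. Ctrl + Saline mice had 1.59, 3.61 and 3.58 normalised CPM and Ctrl + Morphine mice 5.19, 3.41, 1.58 and 3.42. Kdm7a-shRNA + Saline mice had 4.48, 9.79, 16.6, 9.45 and 9.15, and Kdm7a-shRNA + Morphine mice 9.35, 5.76, 12.8 and 5.50. The virus groups did not overlap within either treatment. Tlr3 rose 3.33-fold under saline (95% interval 1.78 to 6.23, adjusted p = 0.00989), 2.45-fold under morphine (1.38 to 4.33, adjusted p = 0.0465) and 2.86-fold averaged (1.87 to 4.36, adjusted p = 0.000995).

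Tlr7, the endosomal receptor of single-stranded RNA, spread widely among mice of a group. Its level was 5.29, 3.42 and 3.31 normalised CPM in Ctrl + Saline, 4.49, 0.854, 2.68 and 1.5 in Ctrl + Morphine, 6.09, 13.5, 12, 5.85 and 8.04 in Kdm7a-shRNA + Saline and 5.52, 4.08, 16.8 and 3.09 in Kdm7a-shRNA + Morphine mice. The saline groups did not overlap, while only 2 of 4 hairpin mice lay above all controls under morphine. Neither treatment alone passed, with 2.27-fold under saline (95% interval 1.06 to 4.88, adjusted p = 0.117) and 3.16-fold under morphine (1.49 to 6.71, adjusted p = 0.0516), but the average did at 2.68-fold (1.57 to 4.59, adjusted p = 0.0081).

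Tlr4, the receptor of lipopolysaccharide, was near the limit of detection in every group. Its level was 0.583 ± 0.260 normalised CPM (SD, n = 3) in Ctrl + Saline, 0.530 ± 0.395 (n = 4) in Ctrl + Morphine, 0.824 ± 0.202 (n = 5) in Kdm7a-shRNA + Saline and 0.847 ± 0.518 (n = 4) in Kdm7a-shRNA + Morphine mice. Read by read, these were 5, 3 and 6 reads in Ctrl + Saline, 11, 3, 4 and 2 in Ctrl + Morphine, 9, 6, 7, 5 and 10 in Kdm7a-shRNA + Saline and 6, 8, 16 and 1 in Kdm7a-shRNA + Morphine mice, so that all groups overlapped. With the filter on low counts removed, the averaged log2 fold change was 0.62 (SE 0.40, adjusted p = 0.296) and did not pass. Its difference from the changes of the other receptors was not tested.

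Cd14, which presents lipopolysaccharide and lipoproteins to TLR4 and TLR2, separated the viruses most cleanly. Its level was 7.40, 8.69 and 8.88 normalised CPM in Ctrl + Saline and 7.19, 5.66, 6.45 and 6.95 in Ctrl + Morphine mice. With the hairpin it was 18.2, 20.9, 39.5, 19.3 and 26.5 under saline and 17.6, 14.5, 29.6 and 8.99 under morphine. All 9 hairpin mice lay above all 7 control mice, which held for 1 of 10 members and for 1.86% of all tested genes. Cd14 rose 2.98-fold under saline (95% interval 1.88 to 4.73, adjusted p = 0.00313), 2.71-fold under morphine (1.75 to 4.21, adjusted p = 0.00872) and 2.84-fold averaged (2.07 to 3.91, adjusted p = 0.00011).

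Downstream of the receptors, Myd88, the adaptor that most of them share, was at 2.64, 2.93 and 1.46 normalised CPM in Ctrl + Saline and 3, 2.03, 2.56 and 1.82 in Ctrl + Morphine mice. With the hairpin it was 4.25, 5.07, 5.21, 2.81 and 4.72 under saline and 5.06, 3.84, 7.73 and 1.61 under morphine. Hairpin mice overlapped with controls in both treatments. The averaged rise was 1.91-fold (95% interval 1.30 to 2.81, adjusted p = 0.0132), while 1.86-fold under saline (adjusted p = 0.107) and 1.97-fold under morphine (adjusted p = 0.0947) did not pass.

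Irak4, the kinase that joins MyD88 after receptor binding, ranged from 0.852 to 3.29 normalised CPM in control and from 2.15 to 5.58 in hairpin mice, and 4 of 9 hairpin mice lay above all controls. Its group means were 2.43 ± 0.410 (SD, n = 3) in Ctrl + Saline, 1.81 ± 1.19 (n = 4) in Ctrl + Morphine, 3.78 ± 1.41 (n = 5) in Kdm7a-shRNA + Saline and 3.07 ± 1.68 (n = 4) in Kdm7a-shRNA + Morphine mice. The averaged difference of 1.63-fold (95% interval 1.04 to 2.56) did not pass after adjustment.

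The subunits of NF-kB had smaller fold changes than the tested receptors. Nfkb1, which encodes p105 and p50, ranged from 8.64 to 13.1 normalised CPM in control and from 8.19 to 21.8 in hairpin mice, with an averaged fold change of 1.43 (95% interval 1.08 to 1.89). Rela, which encodes p65, ranged from 13.1 to 18 in control and from 12.5 to 23.0 in hairpin mice, with an averaged fold change of 1.29 (1.06 to 1.56). For each of them 6 of 9 hairpin mice lay above all controls, and neither passed in any comparison. The difference between the changes of receptors and subunits was not tested.

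Nfkbia, whose product IkBa holds NF-kB in the cytoplasm and whose own gene is raised by NF-kB, was at 29.3, 23.0 and 28.6 normalised CPM in Ctrl + Saline and 28.1, 25.3, 17.3 and 25.1 in Ctrl + Morphine mice. With the hairpin it was 31.5, 35.3, 42.7, 29.9 and 36.7 under saline and 33.4, 31.4, 55.8 and 28.8 under morphine. The viruses did not overlap within either treatment, although the gap was narrow. Nfkbia rose 1.56-fold under morphine (95% interval 1.17 to 2.09, adjusted p = 0.0485), and 1.31-fold under saline (0.966 to 1.76, adjusted p = 0.197) did not pass.

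**Figure D2:**
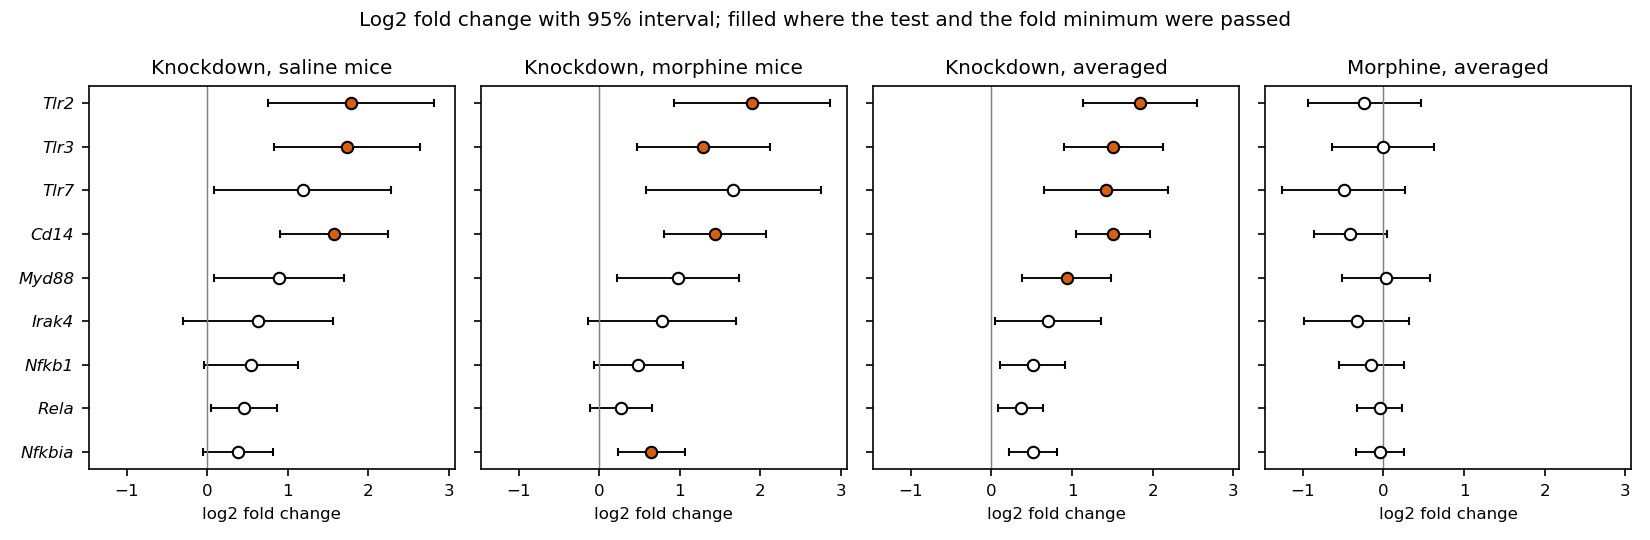
Log2 fold change (horizontal axis) of the 9 tested genes with the 95% interval (bars) for the hairpin under saline, under morphine and averaged, and for morphine averaged over both viruses. Filled points passed the test and the fold minimum, which 3, 4, 5 and 0 genes did, and every point of the 3 hairpin comparisons lies to the right of 0.

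By treatment, 3 members rose under saline (Tlr2, Tlr3 and Cd14) where 16.7% of all tested genes passed, 7.43% of them upward. Under morphine 4 members rose (Tlr2, Tlr3, Cd14 and Nfkbia) where 7.69% passed, 2.86% upward. The hairpin and control mice did not overlap for 5 of 10 members under saline and for 3 under morphine, against 11.1% and 6.37% of all tested genes with every hairpin mouse above every control. The hairpin effect under morphine minus that under saline ranged from -0.45 for Tlr3 to 0.48 for Tlr7 on the log2 scale, and no member passed in this comparison (lowest adjusted p = 0.813), where 0.085% of all tested genes did. No member reached an unadjusted p below 0.05 in it, and DESeq2 called 0. Its intervals were wide, from -1.66 to 0.76 for Tlr3.

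Calls under morphine depended on single mice. Kdm7a-shRNA + Morphine replicate 3 was the highest mouse of its group for 10 of 10 members and replicate 4 the lowest for 9, and Ctrl + Morphine replicate 1 was the highest of its group for 10. Without Kdm7a-shRNA + Morphine replicate 3, Cd14 was the only member that rose under morphine (adjusted p = 0.0381), and Tlr2 was at 1.34 (adjusted p = 0.0908), Tlr3 at 0.99 (adjusted p = 0.179) and Nfkbia at 0.38 (adjusted p = 0.212) on the log2 scale. Only Cd14 likewise was left without Ctrl + Morphine replicate 4. Tlr3 and Nfkbia were both lost without Kdm7a-shRNA + Morphine replicate 1 (1.24 and 0.70 on the log2 scale), Ctrl + Morphine replicate 2 (1.29 and 0.67) or Ctrl + Morphine replicate 3 (1.06 and 0.52), and 6 members rose without Kdm7a-shRNA + Morphine replicate 4. Both were also lost without Kdm7a-shRNA + Saline replicates 2 or 5 or Ctrl + Saline replicates 2 or 3, mice that are no part of this comparison and enter it only through the shared estimate of the spread: Tlr3 then stayed at 1.29 to 1.30 (adjusted p = 0.0502 to 0.0594) and Nfkbia at 0.65 (adjusted p = 0.0501 to 0.0611). Nfkbia alone was lost without Ctrl + Morphine replicate 1 (0.73, adjusted p = 0.0578) or Kdm7a-shRNA + Saline replicate 1 (0.65, adjusted p = 0.0540), and Tlr3 alone without Kdm7a-shRNA + Saline replicate 4 (1.29, adjusted p = 0.0501). Tlr7 passed without Kdm7a-shRNA + Morphine replicates 2 or 4, Ctrl + Morphine replicate 1 or Kdm7a-shRNA + Saline replicate 4 (1.66 to 2.19). Under saline, Tlr2 was lost without Ctrl + Saline replicate 2 (adjusted p = 0.0679) or replicate 3 (adjusted p = 0.0767). The averaged comparison called 5 or 6 members whichever mouse was left out.

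Morphine itself moved no member past the test. In mice with the control virus the log2 fold changes of morphine against saline ran from -0.73 for Tlr7 to 0.22 for Tlr3, with the lowest adjusted p at 0.67, and 0% of all tested genes passed (11.7% had an unadjusted p below 0.05). In hairpin mice they ran from -0.48 for Cd14 to 0.09 for Nfkbia, with the lowest adjusted p at 0.747, and 0.00531% of all tested genes passed. No member had an unadjusted p below 0.05 in either comparison or in their average, and DESeq2 called 0 members in all 3. Averaged over viruses, Cd14 was at 0.753-fold with an interval of 0.551 to 1.03, Tlr7 at 0.71-fold (0.417 to 1.21) and Rela at 0.967-fold (0.797 to 1.17). Changes of the size seen with the hairpin lay outside these intervals for these 3 genes. For Irak4 (0.507 to 1.25) and Nfkb1 (0.684 to 1.19) the interval held a fall of the hairpin's size. An interval that reaches this far does not show that morphine left the genes unaltered. The comparisons share mice, the hairpin and morphine comparisons under control virus both using Ctrl + Morphine or Ctrl + Saline mice.

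The remainder of the pathway was described with 62 further genes, of which 56 were tested. Averaged over treatments 16 rose and 0 fell, with a median log2 fold change of 0.35, so that 28.6% passed where 17.6% of all tested genes did in either direction and 7.68% upward. Under saline 8 rose and 1 fell, and the 16.1% that passed lay near the 16.7% of all tested genes, although 14.3% passed upward against 7.43%. Under morphine 4 rose and 0 fell, and this 7.14% lay near the 7.69% of all tested genes in either direction, against 2.86% upward. Of the 16 genes that rose on average, 8 were among the 11 tested receptors and their partners, and the other 8 were spread over adaptors, kinases, NF-kB subunits, negative regulators and IRF factors. Of 11 ubiquitin ligases and TAK1 complex genes, which carry the signal inside the cell, 0 passed, as did 0 of 5 genes of the IRAK family and its regulators. The share per role was not tested against other roles.

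**Figure D3:**
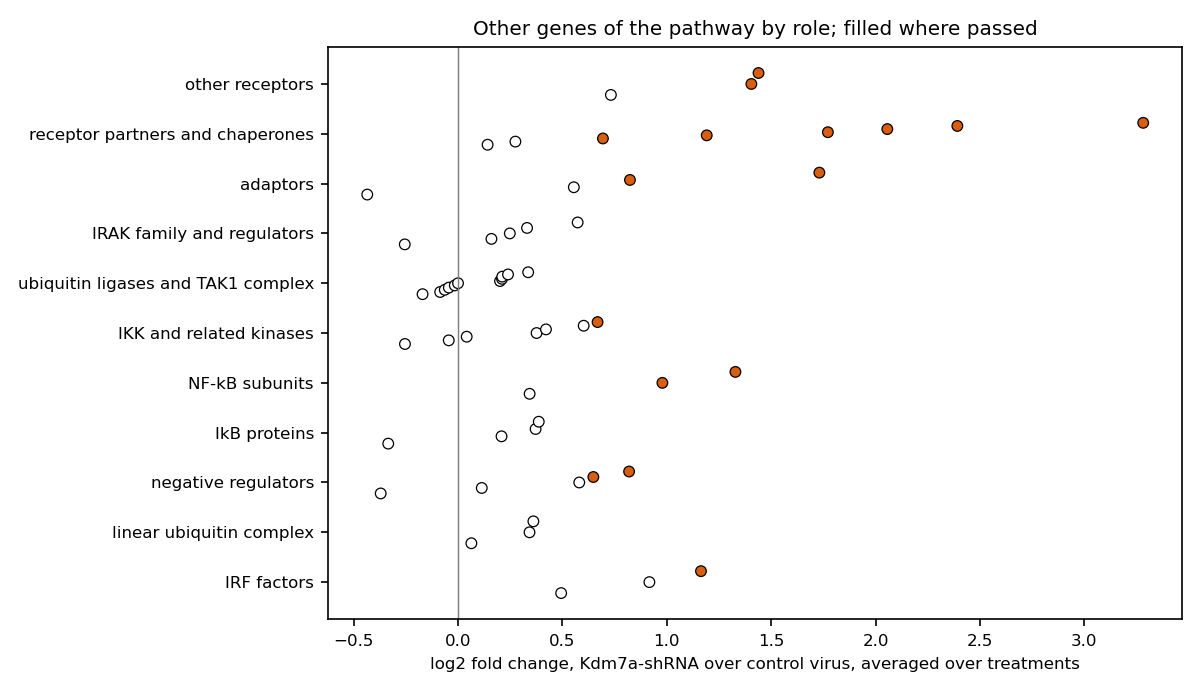
Averaged log2 fold change of the hairpin over the control virus (horizontal axis) for the 56 tested genes of the wider pathway, by role (vertical axis, points spread within a role for legibility). Filled points passed the test and the fold minimum, and the 8 filled points in the upper 2 roles are receptors and their partners.

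Ly86, also known as MD-1, the partner of the receptor-like protein CD180, was at 47.1 ± 8.83 normalised CPM (SD, n = 3) in Ctrl + Saline, 36.2 ± 10.6 (n = 4) in Ctrl + Morphine, 202 ± 88.2 (n = 5) in Kdm7a-shRNA + Saline and 145 ± 128 (n = 4) in Kdm7a-shRNA + Morphine mice. It rose by 2.06 on the log2 scale on average (adjusted p = 0.000344), and Cd180 by 2.39 (adjusted p = 0.00124). Tlr13, the endosomal receptor of bacterial ribosomal RNA, rose by 1.41 (adjusted p = 0.00101). Unc93b1, which carries endosomal receptors from the endoplasmic reticulum, rose under morphine by 1.39 (adjusted p = 0.0184). Cd36, a scavenger receptor that assists TLR2, had 0 or 1 read in each Ctrl + Saline mouse and 18 to 25 reads in each Kdm7a-shRNA + Saline mouse (adjusted p = 0.00711), but 0 to 36 reads in Kdm7a-shRNA + Morphine mice. Under saline Tnip2 and Otulin, which restrain NF-kB, rose by 1.23 (adjusted p = 0.0107) and 0.81 (adjusted p = 0.0129), and Cyld, a deubiquitinase that also restrains it, fell by 0.59 on the log2 scale (adjusted p = 0.00439). Tnip2 was at 4.34 ± 2.21 normalised CPM (SD, n = 3) in Ctrl + Saline and at 9.33 ± 1.5 (n = 4) in Ctrl + Morphine mice, beside 10.1 ± 2.03 (n = 5) and 9.69 ± 3.53 (n = 4) with the hairpin. Without Kdm7a-shRNA + Morphine replicate 3 the averaged count was 9 and the count under morphine 0. Without Ctrl + Saline replicates 2 and 3, each in turn, the count under saline was 3 and 4.

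Known target genes of NF-kB were read as a further list of 31, of which 23 were tested. This list too was chosen with earlier results of these data known. Averaged over treatments 14 rose and 0 fell, with a median log2 fold change of 0.90, which is 60.9% of the tested targets where 7.68% of all tested genes passed upward and 17.6% in either direction. Under saline 8 rose (34.8%, against 7.43% upward and 16.7% in either direction), and under morphine 6 (26.1%, against 2.86% and 7.69%), Nfkbia among them. The chemokine Ccl3 rose by 3.32 on the log2 scale on average (adjusted p = 7.13e-05) and Ccl4 by 2.36 (adjusted p = 0.000293). Ccl3 was at 1.51 ± 1.25 normalised CPM (SD, n = 3) in Ctrl + Saline, 0.980 ± 0.360 (n = 4) in Ctrl + Morphine, 12.9 ± 5.58 (n = 5) in Kdm7a-shRNA + Saline and 10.8 ± 9.43 (n = 4) in Kdm7a-shRNA + Morphine mice. Not every target stood higher: 20 of the 23 had a positive averaged log2 fold change, and the lowest was -0.73. The chemokine Ccl5 had lower means with the hairpin and did not pass. Its means were 38.2 ± 3.29 in Ctrl + Saline and 25.8 ± 16.1 in Ctrl + Morphine mice. With the hairpin they were 20.5 ± 6.62 under saline and 17.6 ± 7.61 under morphine. Lcn2, an iron-scavenging protein of reactive astrocytes and myeloid cells, rose by 3.14 (adjusted p = 0.00187), and Bcl2a1b, a survival gene whose reads may be shared with near-identical copies, by 1.78 (adjusted p = 0.000328). Under saline Gadd45b, Cebpb, Csf1 and Icam1 also rose, and under morphine Birc3 did. Tnf, Il1b, Il6, Il12b, Nos2, Saa3, Cxcl1 and Cxcl2 had too few reads to be tested. The lists share Nfkbia, Tnfaip3, Nfkb2 and Relb.

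The markers of microglia moved with these genes. Of 14 markers, 13 rose on average, with a median log2 fold change of 1.38, 13 under saline and 9 under morphine. Of all tested genes 7.43% rose under saline (16.7% passed in either direction) and 2.86% under morphine (7.69%). Their summed level was 1571 to 2320 normalised CPM in Ctrl + Saline, 932 to 1893 in Ctrl + Morphine, 3362 to 10439 in Kdm7a-shRNA + Saline and 2249 to 10161 in Kdm7a-shRNA + Morphine mice, and 8 of 9 hairpin mice lay above all controls. The highest sum of the Kdm7a-shRNA + Morphine group was again in replicate 3 and the lowest in replicate 4. Trem2 (log2 fold change 2.17, adjusted p = 0.000198) and Tyrobp (2.03, adjusted p = 0.000169), a microglial receptor and its signalling partner, rose, as did C1qb and C1qc. Of the 14 markers of blood leukocytes and border macrophages, 12 were tested and 1 rose, Lyz2 (1.84, adjusted p = 0.000261). The sum of these 14 was 34.0 to 114 in control and 83.7 to 370 in hairpin mice, most of it Lyz2, which reached 330. The neutrophil gene S100a9 was at 0 reads in 3 of 16 mice, the B cell gene Cd79a in 2, and S100a8 and Itgal in 1 each. Astrocyte markers rose for 3 of 8 and endothelial markers for 2 of 6 on average, oligodendrocyte markers for 0 of 5, and Gad2 of the 6 neuronal markers fell by 0.60 on the log2 scale (adjusted p = 0.00469). Of all tested genes 7.68% rose and 17.6% passed in either direction on average, and with lists this short a count of 1 to 3 is a description. Summed per list, 8 of 9 hairpin mice lay above all controls for the leukocyte and border macrophage list too, and 7 for endothelium. The number was 6 for oligodendrocytes, 4 for astrocytes and 0 for neurons. The part of the microglial markers in the rise of the members was not tested.

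The level of each member was also set against the summed microglial markers of the same mouse, a measure chosen after the values were seen. Per 1000 CPM of these markers, Tlr2 was at 1.31 ± 0.382 (SD, n = 7) in control and 1.47 ± 0.322 (n = 9) in hairpin mice, Cd14 at 4.41 ± 0.969 and 3.98 ± 0.954, Tlr3 at 2 ± 1.02 and 1.77 ± 0.683, and Tlr7 at 1.72 ± 0.714 and 1.43 ± 0.286. On this scale the virus groups overlapped for all 4 genes and their means differed by less than the SD of the control mice. Tlr4, with 1 to 16 reads per mouse, was at 0.314 ± 0.145 in control and 0.159 ± 0.0838 in hairpin mice. For Tlr4, 4 of 9 hairpin mice lay below all controls. Myd88 was at 1.45 ± 0.509 in control and 0.842 ± 0.289 in hairpin mice, and Irak4 at 1.18 ± 0.425 and 0.636 ± 0.160. Nfkb1 was at 6.38 ± 1.45 in control and 2.90 ± 0.775 in hairpin mice, with all 9 hairpin mice below all 7 controls. Rela was at 9.25 ± 2.68 and 3.93 ± 1.43 and Nfkbia at 15.5 ± 5.42 and 7.38 ± 3.01, each with 8 of 9 hairpin mice below all controls. The summed markers had a mean of 1728 normalised CPM in control and 5920 in hairpin mice. A gene that rose less than this sum, or not at all, falls on this scale by arithmetic, so such a fall is no separate result. The share of all tested genes that fell on this scale was not computed, and no test was made on it.

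**Figure D4:**
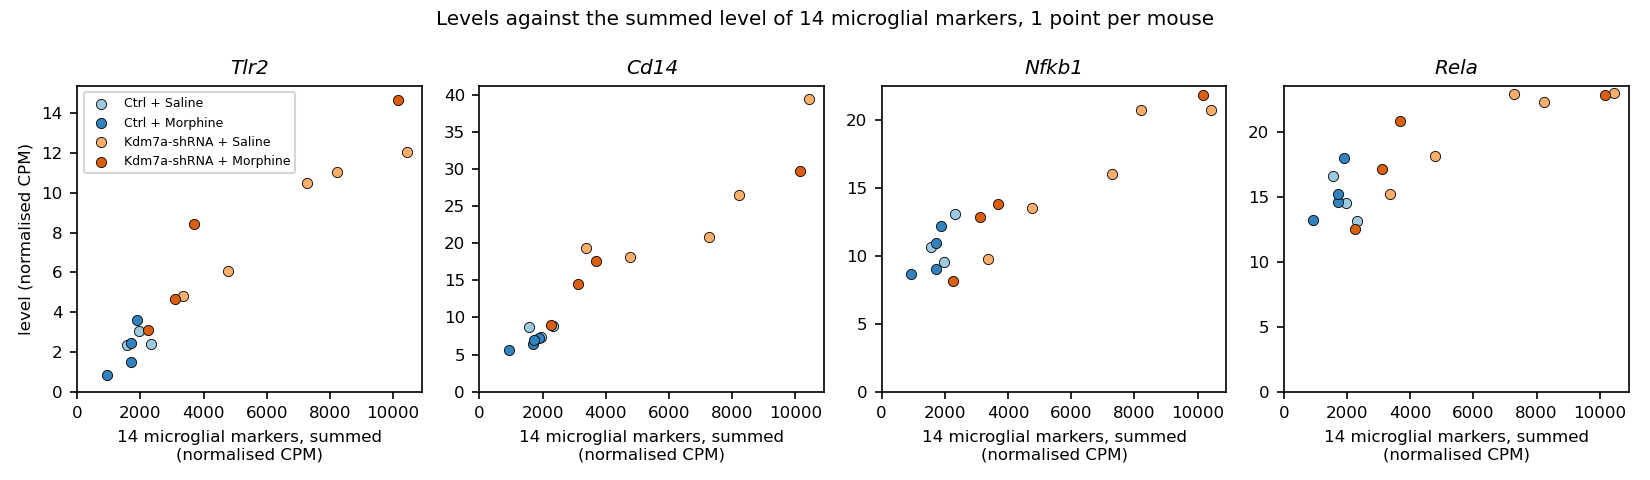
Level of Tlr2, Cd14, Nfkb1 and Rela (vertical axes, normalised CPM) against the summed level of 14 microglial markers (horizontal axis, normalised CPM), 1 point per mouse, coloured by group. Over sums from 932 to 10439, Rela runs from 12.5 to 23.0 normalised CPM, Cd14 from 5.66 to 39.5 and Tlr2 from 0.854 to 14.7, and per 1000 CPM of the markers single mice range from 2.86 to 6.07 for Cd14 and from 0.875 to 2.29 for Tlr2.

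Genes that varied with the members among mice of the same group were looked up for the 3 members with the lowest adjusted p, over the deviations of log2 CPM from the group means in 16 mice and among 14436 known genes. For Tlr2 the closest were Syngr2 (Pearson r = 0.977, Spearman rho = 0.941), Fcgr1 (r = 0.967, rho = 0.976) and Lcp1 (r = 0.963, rho = 0.965). For Cd14 they included Sil1 (r = 0.962, rho = 0.959) and Lcp2 (r = 0.941, rho = 0.924), and for Tlr3 they were Spata3 (r = 0.899, rho = 0.788), Ly6g6d (r = 0.898, rho = 0.829) and Yif1a (r = 0.863, rho = 0.853). Without the 2 mice farthest from the median of the member, r lay between 0.942 and 0.963 for Tlr2, 0.879 and 0.911 for these genes with Cd14, and 0.825 and 0.866 for Tlr3. These values share the libraries and their depth and were picked as the highest of all, so they carry no test.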

How the data were processed

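mPFC RNA of 16 mice was made into cDNA-PCR libraries and read on a Nanopore instrument. Per the study's methods, reads were filtered on quality and length, rRNA reads were removed, and full-length non-chimeric reads were clustered on mm10 with minimap2 and Pinfish and consolidated with cDNA Cupcake. The deposited count of each gene is the number of reads assigned to it by the authors, without normalization. The deposited CPM, which the authors scaled to the total of each library, were not used for any value here. The submitters' processing notes name edgeR 3.8.6, and its test, filter and normalization are not given in the sources used here.

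Here the counts were fitted with edgeR 4.0.16 under R 4.3.3, with DESeq2 1.42.0 as an alternative tool. Genes passed filterByExpr on the 4 groups, TMM factors were applied (1.02 to 1.07 in control and 0.913 to 0.991 in hairpin mice), and edgeR's quasi-likelihood test was run in 1 fit with 1 coefficient per group over 7 comparisons. P-values were adjusted by Benjamini-Hochberg over 18826 genes, and a gene passed at an adjusted p below 0.05 and a fold change of at least 1.5. Averaged comparisons are the mean of both treatment (or virus) effects. A standard error is the size of a log2 fold change over the square root of its F. On simulated counts for the averaged comparison, 89 of 100 genes with a 2-fold and 100 of 100 with a 4-fold change were called, and 6 of 17945 unchanged genes. In the real mice, the SD of a member within a group ran from 9.63% of its mean (Cd14, Ctrl + Saline) to 86.5% (Tlr7, Kdm7a-shRNA + Morphine). The share called among genes with so wide a spread, or among genes that move together within a mouse, was not tested.

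The members and all lists of genes were chosen with earlier results of these data known. Named genes of other lists were those that passed in a hairpin or averaged comparison if 8 or fewer, otherwise the 4 higher and 4 lower with the lowest adjusted p. Mice with the same replicate number in different groups are different animals. The deviations of same-numbered mice had a median correlation of 0.0139 over 21 pairs. For different-numbered mice of different groups it was -0.00725 over 74 pairs. Replicates of a group differed by more than sampling noise (chi-square per degree of freedom 8.33 to 51.2 over 25 pairs). Promoters are from RefSeq on GRCm38.p6 and gene positions from GENCODE on GRCm38. The promoter of Cd14, 1 further gene that varied with Cd14 and 1 leukocyte marker are not reported here.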

Additional observations from a re-analysis of the deposited data

Results flagged for a closer look

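The groups of 4 and 5 mice were screened for a mouse far from the rest of its group, over the members, Kdm7a, 3 further named genes and 2 marker sums in 3 groups, 48 sets in all, of which chance alone marks about 1 in 20. The mouse Kdm7a-shRNA + Morphine replicate 3 stood apart for Irak4, at 5.58 normalised CPM where the next mouse of the group had 2.40, a gap of 0.926 of the range of the group. The same mouse was marked for Nfkbia, at 55.8 normalised CPM where the next had 33.4. This gap of 0.831 of the range was just over the limit of 0.829 for 4 mice. No other set was marked. Both marks are of the same mouse and the sets share mice, so this screen cannot say whether the marks exceed chance. Kdm7a-shRNA + Morphine replicate 3 also had the highest summed microglial markers and the most reads of its group.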

How the results depend on the processing

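The number of members called under saline, 3, was 2 to 4 over 9 alternatives and likewise with each mouse left out. On average it was 5 with DESeq2, no filter, RLE size factors, library size only, known genes only and the replicate block, 6 on adjusted p alone, and 3 with at least 10 counts in every mouse, which removed Tlr2, Tlr7 and Irak4 from the test. The number of members under morphine, 4, was 2 with library size only, known genes only or the replicate block, 1 with at least 10 counts in every mouse or with the compared groups alone, and 1 to 6 with each mouse left out. The wider pathway gave 5 (at least 10 counts), 14 (compared groups alone) and 3 to 14 (each mouse left out) under saline, 2, 1 and 0 to 8 likewise under morphine, and on average 5 (at least 10 counts), 10 (known genes only) and 9 to 18. Library size alone lowered the median of all genes by 0.13 under saline, 0.11 under morphine and 0.12 on average (log2). Replicate numbers mark different animals and were not taken as pairs. Whether a number also marks a shared batch is not given by the labels. The deviations of same-numbered mice correlated from -0.102 to 0.395, and those of different-numbered mice of different groups from -0.474 to 0.318. As a hint from the data, 8 of 15 mice correlated best with a mouse of their own number, where 21 pairs shared a number and 74 did not.

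Over all genes, 3151 calls under saline became 1852 with at least 10 counts and 1419 with known genes only, 1448 under morphine became 697, 446 and, with the compared groups alone, 685, and 3316 on average became 1525, 1456 (1042 of them higher, against 1446 of 3316) and, on adjusted p alone, 5190. DESeq2 called 190 genes for morphine in control mice (edgeR 0), 26 in hairpin mice (edgeR 1), 5 on average (edgeR 0) and 227 for the difference of the hairpin effects (edgeR 16, 34 without a filter, 6 with the replicate block). With each mouse left out, the counts of all genes ran over 1424 to 3730 under saline and 568 to 2066 under morphine. No member passed in a morphine comparison or in the difference of hairpin effects under any setting.

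Signs changed only for uncalled values, and the cause was not tested. With the replicate block, the difference of the hairpin effects was -0.11 for Tlr2, -0.17 for Myd88 and -0.0072 for Irak4, morphine in control mice was 0.19 for Myd88 and 0.042 for Nfkb1, and morphine averaged was 0.048 for Tlr3 and 0.013 for Rela. Library size only gave 0.0095 for Tlr3 (morphine averaged), and the compared groups alone 0.00069 for Myd88 (morphine in control mice). Under morphine against saline in hairpin mice, with each mouse left out in turn, the log2 fold changes ran over Tlr2 -0.74 to 0.074, Tlr3 -0.53 to 0.034, Myd88 -0.34 to 0.35, Nfkb1 -0.48 to 0.0092 and Nfkbia -0.17 to 0.20. For the difference of the hairpin effects, with each mouse left out in turn, the log2 fold changes ran over Tlr2 -0.44 to 0.52, Tlr7 -0.38 to 1.00, Cd14 -0.52 to 0.092, Myd88 -0.33 to 0.36, Irak4 -0.35 to 0.62, Nfkb1 -0.36 to 0.13 and Nfkbia -0.0052 to 0.37. Under morphine against saline in control mice, with each mouse left out in turn, the log2 fold changes ran over Tlr3 -0.10 to 0.44, Myd88 -0.27 to 0.20 and Rela -0.048 to 0.14. For morphine averaged, with each mouse left out in turn, the log2 fold changes ran over Tlr3 -0.16 to 0.13, Myd88 -0.18 to 0.17, Rela -0.11 to 0.023 and Nfkbia -0.17 to 0.024.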
